A study of Danio rerio with 34 samples.

Results

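Cytochrome P450 families 2 to 4 were taken as every gene whose symbol, ignoring case, starts with cyp2, cyp3 or cyp4 followed by a letter. That rule found 49 of the 35117 gene identifiers counted, with 40 in family 2, 5 in family 3 and 4 in family 4. Too few counts for a test were found in 5 of the 49, which left 44. The 5 were cyp2k17 with 98 counts over all 18 libraries, cyp2k20 with 84, cyp2k21 with 70, cyp2k31 with 50 and cyp2x10.1 with 3. The symbol CYP4V2 belongs to 2 identifiers, ENSDARG00000061585 and ENSDARG00000062132, which were kept apart.

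RNA was measured in the testis of adult zebrafish in 3 groups of 6 libraries, which the series describes as biological replicates. The groups were fish given the carrier DMSO, fish given 3 nM PCB126 and fish given 10 nM PCB126, a planar polychlorinated biphenyl and strong agonist of the aryl hydrocarbon receptor. Exposed fish were held with PCB126 for 24 h and then kept in clean water for 7 days before sampling. The sources used here do not give the strain, the age in months or whether a library holds 1 fish or several.

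P450 enzymes are heme proteins of the endoplasmic reticulum that insert 1 atom of oxygen into a substrate with electrons passed on by P450 reductase and, for some reactions, cytochrome b5. Family 1 is the textbook target of the aryl hydrocarbon receptor. Families 2 and 3 hold most drug and toxicant metabolizing enzymes of the liver and gut, whose genes respond in mammals to the nuclear receptors PXR and CAR, and they also oxidize arachidonic acid and steroids. Family 4 enzymes hydroxylate fatty acids and eicosanoids at the end of the chain. Fish carry subfamilies in families 2 and 3 that mammals lack, among them cyp2k, cyp2p, cyp2x, cyp2aa, cyp2ad and cyp3c.

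Library totals were 16.2 to 29.8 M counts in DMSO testes, 21.8 to 29.1 M in 3 nM testes and 18.6 to 26.8 M in 10 nM testes (M, 1e6 counts). Levels are given as CPM, counts per 1e6 scaled counts, which is not per length, so levels of different genes are not compared. A principal component analysis of all tested genes set 5 exposed libraries apart on its first component (39.7% of the variance): 10 nM replicates 1, 5 and 6 and 3 nM replicates 4 and 6. The exposure itself was visible in family 1, where CYP1A1 (zebrafish cyp1a) was at 815 to 2541 CPM in 10 nM testes and 409 to 1000 CPM in 3 nM testes, against 2.43 to 4.85 CPM in DMSO testes. Germ cell markers summed to 7845 to 8531 CPM in DMSO testes, 7499 to 9647 CPM in 3 nM testes and 6460 to 8839 CPM in 10 nM testes, so the cells of the labelled tissue were present.

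Most of the 49 genes were read at a low level in this tissue. At least 1 count was present in every library for 44 of them, 36 averaged 1 CPM or more and 8 averaged 10 CPM or more. The count of 3 taken as the detection limit equals 0.0913 to 0.194 CPM, depending on the library, and covers counting error only. Of all CPM summed over the 49 genes, 56.0% fell on cyp2p10, cyp2v1, cyp3c3 and cyp3c1, and 25% on cyp2p10 alone, a share of reads that gene length also sets.

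At 10 nM, 3 of the 44 tested genes rose and 0 fell against DMSO: cyp2k22, cyp2aa4 and cyp3c1 (edgeR's quasi-likelihood test, Benjamini-Hochberg adjusted p under 0.05 over all 24053 genes tested). That is 6.82% of the members, where 10.8% of all genes tested passed in either direction, 7.4% rose and 3.44% fell. At an unadjusted p under 0.05, 14 members were higher and 1 lower, against 20.1% and 12.8% of all genes (33% in either direction). The estimate was above 0 for 37 of 44 members and for 54.3% of all genes. The median log2 fold change was 0.53 over the members, 0.60 in family 2, 0.71 in family 3 and 0.21 in family 4, against 0.058 over all genes tested. In 0 of 44 members did the 6 libraries at 10 nM lie wholly above or wholly below the 6 DMSO libraries, against 2.93% of all genes wholly above and 3.2% wholly below. As in any bulk sample, fewer cells of a type and less RNA per cell cannot be told apart.

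**Figure D1:**
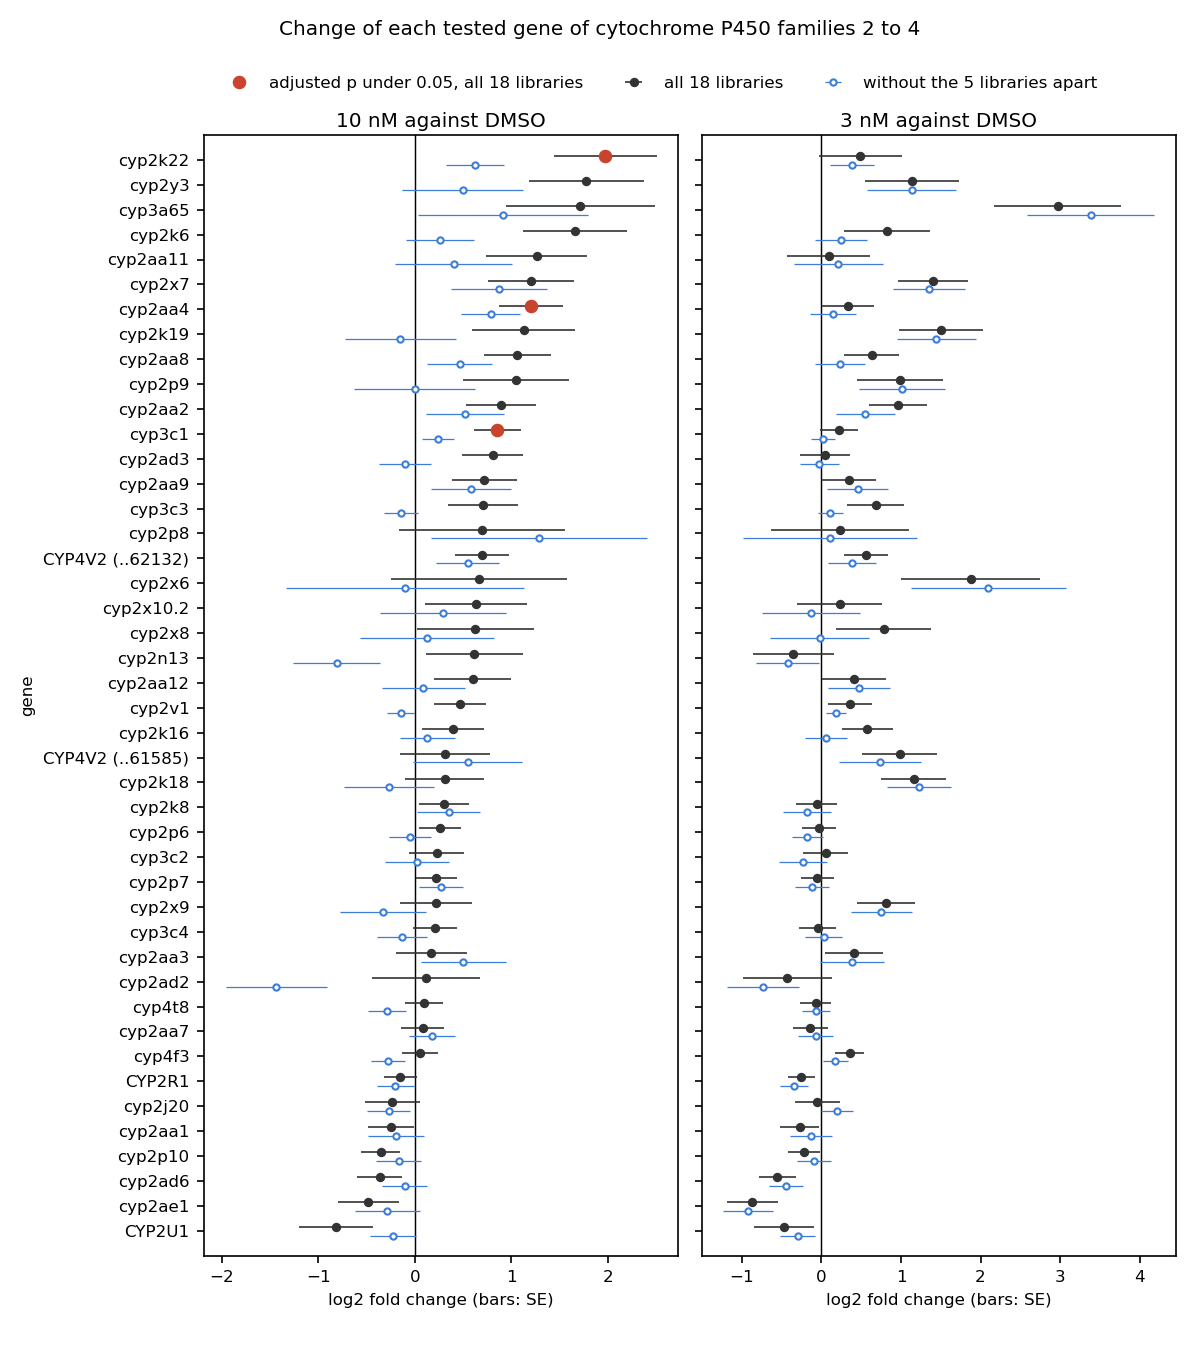
Log2 fold change (x axis, bars show the SE) of each of the 44 tested genes (y axis) at 10 nM against DMSO on the left and at 3 nM against DMSO on the right; filled points use all 18 libraries, open points leave out the 5 libraries apart, and large red points passed the test. On the left, 37 filled points and 23 open points lie above 0, and the 3 red points are cyp2k22, cyp2aa4 and cyp3c1.

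The median of the members at 10 nM depended on the 5 libraries apart. Leaving these out kept only replicates 2, 3 and 4 at 10 nM, so that fewer genes of any kind can pass. Without the 5 libraries apart, an alternative chosen after seeing the data, 0 members passed at 10 nM against DMSO (edgeR; 2 at an unadjusted p under 0.05), where 1.9% of all genes did and 19.4% were at an unadjusted p under 0.05. The median of the members was then 0.057 against -0.0099 over all genes, and 23 of 44 were above 0. All 3 calls were thus lost: the estimates became 0.63 for cyp2k22, 0.78 for cyp2aa4 and 0.24 for cyp3c1, with edgeR adjusted p-values of 0.268, 0.175 and 0.452. The 2 genes under an unadjusted p of 0.05 were cyp2aa4 and, at -1.43 ± 0.53 (SE), cyp2ad2.

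Leaving out 1 library was enough to change the count. With 1 library out at a time, 0 to 7 members passed at 10 nM against DMSO. The count over all genes moved as well, from 826 to 3855 in the same refits, against 2609 with all 18 libraries. The count was 0 without DMSO replicate 1, 2 or 4 or 10 nM replicate 1, 1 without DMSO replicate 5 or 10 nM replicate 5, 5 without 3 nM replicate 6 or 10 nM replicate 2 or 4, and 7 without 10 nM replicate 3. For cyp2k22 the call was lost when any of DMSO replicates 1, 2, 4 and 6 and 10 nM replicates 1 and 5 was left out. For cyp2aa4 these libraries were DMSO replicates 1, 2, 4 and 5 and 10 nM replicate 1, and for cyp3c1 the same 5 with 10 nM replicates 5 and 6. The estimates stayed above 0 in each case, at 1.13 to 2.18 for cyp2k22, 0.81 to 1.34 for cyp2aa4 and 0.67 to 0.96 for cyp3c1. DESeq2 on all 18 libraries passed 7 members, all higher: the same 3 with cyp2aa8, cyp2k6, cyp2x7 and cyp2y3, where it passed 18.2% of all genes. A fit of only the 12 libraries at 10 nM and in DMSO passed 1 member, cyp3a65, so that all 3 calls were lost. That fit also passed fewer of all genes than the fit of all 18 libraries.

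Gene cyp2k22 belongs to the cyp2k subfamily, whose trout relative CYP2K1 hydroxylates lauric acid and activates aflatoxin. Its lowest, median and highest levels were 1.27, 2.39 and 17.6 CPM in 10 nM testes, against 0.639, 1.38 and 2.13 CPM in DMSO testes. The upper end at 10 nM was set by replicate 1 at 17.6 CPM and replicate 5 at 7.75 CPM. Replicates 2 and 4, both at 2.39 CPM, were just above the highest DMSO library. Replicates 3 and 6, at 1.76 and 1.27 CPM, lay within the DMSO range. The log2 fold change was 1.97 ± 0.53 (SE, edgeR adjusted p = 0.0295). At 3 nM the gene lay between 1.56 and 2.55 CPM, and its log2 fold change against DMSO was 0.49 ± 0.52 (SE).

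Gene cyp2aa4 is one of 9 members of the cyp2aa subfamily, found in fish and not in mammals. Its lowest, median and highest levels were 1.65, 2.81 and 7.80 CPM in 10 nM testes, against 1.12, 1.42 and 2.13 CPM in DMSO testes. At 10 nM, 5 of 6 libraries were above the highest DMSO library, and replicate 3, at 1.65 CPM, overlapped it. The log2 fold change was 1.20 ± 0.33 (SE, edgeR adjusted p = 0.0304), and without 10 nM replicate 1 it was 0.81. At 3 nM, levels of 1.35 to 2.72 CPM gave 0.33 ± 0.33 (SE) against DMSO.

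Gene cyp3c1 is a member of the cyp3c subfamily, a fish branch of family 3. Its lowest, median and highest levels were 23.1, 29.7 and 57.5 CPM in 10 nM testes, against 13.8, 21.9 and 24.8 CPM in DMSO testes. Replicates 1 and 5 stood at 57.4 and 57.5 CPM and replicate 6 at 34.3 CPM, whereas replicates 2, 3 and 4 lay at 23.1 to 25.1 CPM. Of these, replicate 2 was within the DMSO range and replicates 3 and 4 were just above its highest library. The log2 fold change was 0.86 ± 0.24 (SE, edgeR adjusted p = 0.0340). At 3 nM, levels of 17.4 to 32.9 CPM gave 0.22 ± 0.24 (SE), with the highest value in replicate 6.

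**Figure D2:**
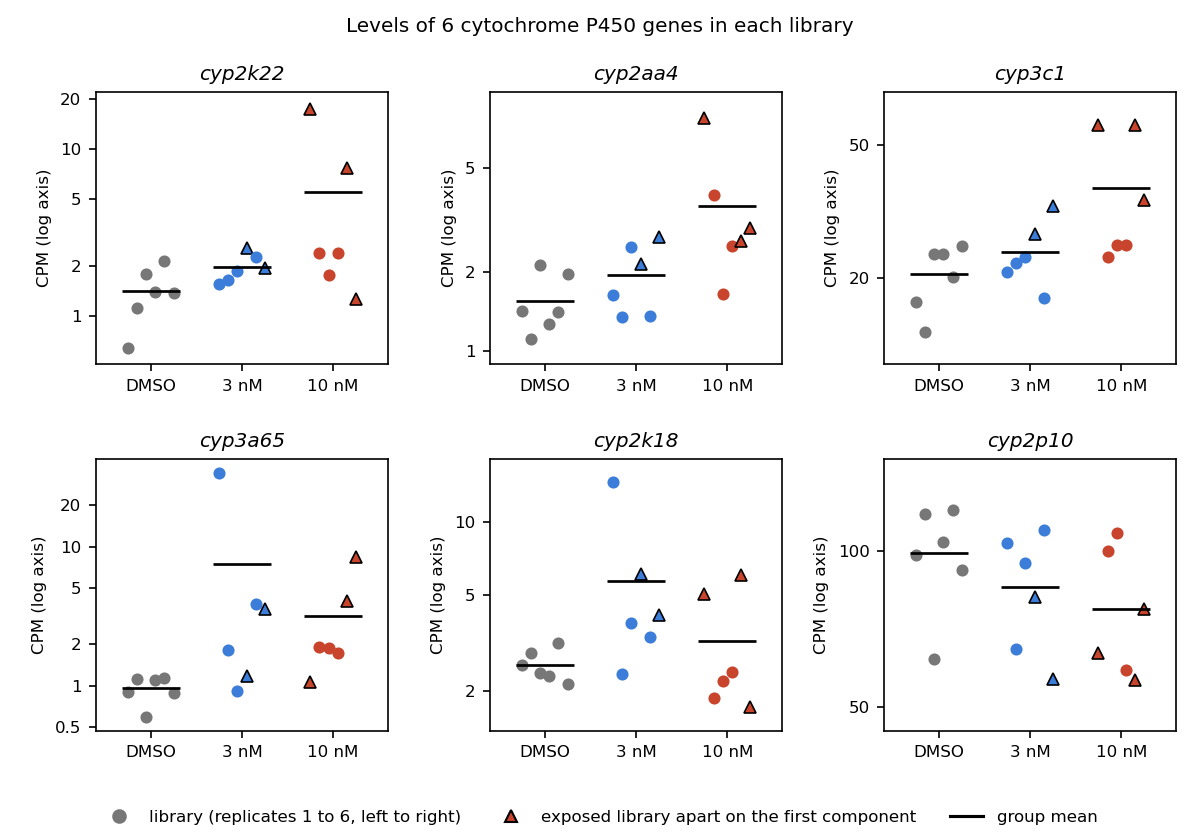
CPM (y axes, logarithmic) of 6 genes in every library of the 3 groups (x axes); triangles are the 5 exposed libraries apart and lines are group means. For cyp2k22 and cyp3c1 the 10 nM mean is pulled up by replicates 1 and 5, for cyp3a65 and cyp2k18 the 3 nM mean by replicate 1 at 34.0 and 14.7 CPM, and cyp2p10 overlaps between all groups.

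The summed level of the cyp3c genes was high in the 5 libraries apart, mostly through cyp3c3 and cyp3c1. Summed over cyp3c1, cyp3c2, cyp3c3 and cyp3c4, the level was 159 CPM in 10 nM replicate 1, 150 CPM in replicate 5 and 79.6 CPM in replicate 6, and 58.5 to 63.5 CPM in the other 3, against 52.4 to 67.5 CPM in DMSO testes. At 3 nM it was 116 CPM in replicate 4 and 115 CPM in replicate 6, and 50.6 to 74.6 CPM in the other 4. Within the subfamily, cyp3c3 had lowest, median and highest levels of 21.9, 29.3 and 86.4 CPM in 10 nM testes, against 20.3, 28.1 and 33.1 CPM in DMSO testes. Its groups overlapped, and 10 nM replicates 1 and 5 and 3 nM replicates 4 and 6 were the 4 libraries at 70.0 CPM or more. The log2 fold change of cyp3c3 was 0.71 ± 0.36 (SE; edgeR adjusted p = 0.174) at 10 nM and 0.68 ± 0.36 (SE) at 3 nM, and without the 5 libraries apart -0.14 and 0.11. The other 2 were not high in all of these libraries: cyp3c4 was at 3.45 CPM in 3 nM replicate 4 and cyp3c2 at 6.84 CPM in 3 nM replicate 6 and 6.42 CPM in 10 nM replicate 6, within the DMSO ranges of 3.24 to 6.90 and 4.17 to 7.19 CPM. Their log2 fold changes were 0.23 ± 0.29 (SE) for cyp3c2 and 0.21 ± 0.23 (SE) for cyp3c4 at 10 nM against DMSO.

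The other member of family 3, cyp3a65, is a zebrafish CYP3A expressed in liver and intestine. Its lowest, median and highest levels were 0.909, 2.67 and 34.0 CPM in 3 nM testes, against 0.592, 1.0 and 1.13 CPM in DMSO testes. A single library, 3 nM replicate 1, held the value of 34.0 CPM, and the next at 3 nM was replicate 5 at 3.85 CPM. Only replicate 3 at 3 nM, at 0.909 CPM, lay within the DMSO range, and replicate 4, at 1.18 CPM, was just above it. Among the 10 nM libraries only replicate 1, at 1.07 CPM, lay within that range. The log2 fold change at 3 nM was 2.97 ± 0.79 (SE) and did not pass with edgeR (adjusted p = 0.160), although DESeq2 passed it (adjusted p = 0.00514). Without 3 nM replicate 1 the estimate was 1.22 (edgeR adjusted p = 0.289). At 10 nM the levels were 1.07, 1.89 and 8.38 CPM, with the highest in replicate 6, and the log2 fold change was 1.72 ± 0.77 (SE, edgeR adjusted p = 0.132). That gene passed at 10 nM in a fit of the 12 libraries compared alone and in a fit without 3 nM replicate 1, with adjusted p-values of 0.0411 and 0.0381.

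**Figure D3:**
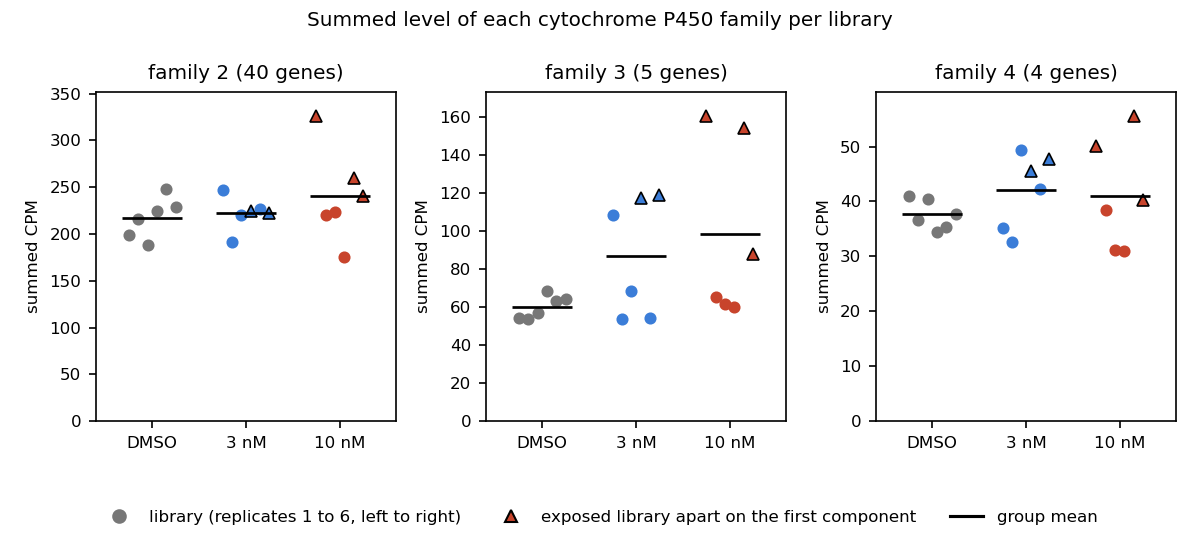
Summed CPM (y axes, from 0) of families 2, 3 and 4 in every library of the 3 groups (x axes); triangles are the 5 exposed libraries apart and lines are group means. The family 3 sums of the 5 triangles are 88.0 to 160 CPM and that of 3 nM replicate 1 is 109 CPM, while the other 6 exposed libraries lie at 53.9 to 68.5 CPM beside 53.5 to 68.6 CPM in DMSO testes.

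Across families, the summed level of family 3 was 98.3 ± 46.9 CPM in 10 nM testes and 87.0 ± 31.3 CPM in 3 nM testes, against 60.2 ± 6.08 CPM in DMSO testes (SD, n = 6 each). Family 2 summed to 241 ± 50.2 CPM in 10 nM testes and 222 ± 18.1 CPM in 3 nM testes, against 217 ± 21.8 CPM in DMSO testes (SD, n = 6 each). Family 4 summed to 41.1 ± 9.97 CPM in 10 nM testes and 42.1 ± 6.88 CPM in 3 nM testes, against 37.6 ± 2.66 CPM in DMSO testes (SD, n = 6 each). In each family, the mean of an exposed group differed from the DMSO mean by less than the SD of that exposed group. That SD is a spread of single libraries and does not measure the uncertainty of the difference. For family 3, both exposed means were above the highest DMSO library, at 68.6 CPM. These sums are descriptions and were not tested.

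The cyp2p, cyp2ad, cyp2v, cyp2n and cyp2j genes are the fish relatives of mammalian CYP2J, an epoxygenase of arachidonic acid. In this group cyp2p10 had lowest, median and highest levels of 56.4, 70.4 and 108 CPM in 10 nM testes, against 62.0, 101 and 120 CPM in DMSO testes. The groups overlapped over most of their range, and the log2 fold change was -0.35 ± 0.20 (SE; edgeR adjusted p = 0.226) at 10 nM and -0.22 ± 0.20 (SE) at 3 nM. By contrast, cyp2v1 reached 107 CPM in 10 nM replicate 1 with a median of 32.1 CPM at 10 nM, against a median of 36.0 CPM and a highest level of 39.4 CPM in DMSO testes. Its log2 fold change was 0.47 ± 0.27 (SE) at 10 nM and -0.15 without the 5 libraries apart. Levels of cyp2ad3 were 34.7, 34.3 and 50.9 CPM in 10 nM replicates 1, 5 and 6, and 11.4 to 17.1 CPM in the other 3, against 9.81 to 22.2 CPM in DMSO testes. The log2 fold change of cyp2ad3 was 0.81 ± 0.31 (SE, edgeR adjusted p = 0.0920), and -0.10 without the 5 libraries apart. Differences at 10 nM against DMSO were 0.26 ± 0.22 (SE) for cyp2p6 and 1.05 ± 0.55 (SE) for cyp2p9, neither past the test, and -0.051 and -0.00084 without the 5 libraries apart.

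Levels of cyp2j20 were spread over 2.14 to 6.81 CPM in 10 nM testes and 2.64 to 6.23 CPM in 3 nM testes, against 4.11 to 4.74 CPM in DMSO testes. That gene, singled out after its values were seen, had an SD of 45.3% of the mean at 10 nM and 40.6% at 3 nM, against 5.20% in DMSO testes. Over the 44 members, the median of that SD, as a percentage of the mean, was 47.2% at 10 nM and 38.8% at 3 nM, against 28.6% in DMSO testes. It was larger at 10 nM than in DMSO testes for 31 of 44 members (70.5%), as it was for 75.5% of all genes tested. At 3 nM it was larger than in DMSO testes for 24 of 44 (54.5%), against 68.2% of all genes.

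The 9 cyp2aa genes summed to 12.2 to 27.8 CPM in 10 nM testes and 10.3 to 17.1 CPM in 3 nM testes, against 8.33 to 14.6 CPM in DMSO testes. The 10 nM sum was above the highest DMSO sum in 4 of 6 libraries, replicates 1, 2, 5 and 6. Beside cyp2aa4, the estimates at 10 nM against DMSO were largest for cyp2aa11, at 1.26 ± 0.52 (SE; edgeR adjusted p = 0.106), and for cyp2aa8, at 1.06 ± 0.35 (SE; edgeR adjusted p = 0.0532). Without the 5 libraries apart they were 0.40 ± 0.61 for cyp2aa11 and 0.47 ± 0.34 for cyp2aa8 (SE). The cyp2aa11 levels ran from 0.767 to 6.14 CPM in 10 nM testes, against 0.348 to 1.88 CPM in DMSO testes, with the highest in 10 nM replicate 1. For cyp2aa1 and cyp2aa7 the estimates were -0.24 ± 0.24 and 0.082 ± 0.22 (SE).

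The 10 cyp2k genes summed to 34.8 and 26.5 CPM in 10 nM replicates 1 and 5 and to 9.39 to 10.9 CPM in the other 4, against 7.10 to 10.4 CPM in DMSO testes. At 3 nM the sum was 26.8 CPM in replicate 1, 18.8 CPM in replicate 4 and 17.1 CPM in replicate 6, and 8.26 to 11.5 CPM in the other 3. Which gene was high differed between these libraries. In 10 nM replicate 1, cyp2k22 stood at 17.6 CPM and cyp2k18 at 5.02 CPM, whereas in 3 nM replicate 1, cyp2k22 stood at 1.56 CPM, cyp2k18 at 14.7 CPM and cyp2k19 at 7.04 CPM.

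For cyp2k6, known in zebrafish to activate aflatoxin, 10 nM replicates 1 and 5 were at 3.53 and 3.81 CPM and the other 4 at 0.471 to 0.767 CPM, against 0.274 to 0.755 CPM in DMSO testes. Its log2 fold change was 1.66 ± 0.54 (SE, edgeR adjusted p = 0.0533), and 0.27 ± 0.35 (SE) without the 5 libraries apart. At 3 nM against DMSO the estimates were 1.16 ± 0.41 (SE; edgeR adjusted p = 0.257) for cyp2k18 and 1.51 ± 0.53 (SE; edgeR adjusted p = 0.256) for cyp2k19. Both genes had their highest level of all 18 libraries in 3 nM replicate 1, without which the 3 nM estimates were 0.61 and 0.95. At 10 nM the estimates were 0.31 ± 0.41 (SE) for cyp2k18 and 1.13 ± 0.53 (SE) for cyp2k19, and without the 5 libraries apart they were -0.27 and -0.15.

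The 6 cyp2x genes summed to 4.24 to 8.78 CPM in 3 nM testes, against 1.01 to 5.28 CPM in DMSO testes, and to 2.96 to 7.59 CPM in 10 nM testes. All but DMSO replicate 5 among the DMSO libraries lay under every 3 nM library. Within them cyp2x7 ran from 1.56 to 5.31 CPM in 3 nM testes and 1.72 to 5.28 CPM in 10 nM testes, against 0.226 to 2.47 CPM in DMSO testes. Its log2 fold change was 1.40 ± 0.44 (SE; edgeR adjusted p = 0.216) at 3 nM and 1.20 ± 0.44 (SE; edgeR adjusted p = 0.0766) at 10 nM. The cyp2x7 estimates depended less on the libraries apart, at 1.35 ± 0.45 and 0.87 ± 0.50 (SE) without them, and still missed the threshold.

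Some members have a known role across vertebrates. CYP2R1, the vitamin D 25-hydroxylase, had lowest, median and highest levels of 5.76, 7.16 and 8.98 CPM in 10 nM testes, against 5.51, 8.16 and 10.3 CPM in DMSO testes. All of its 10 nM libraries lay within the DMSO range, with a log2 fold change of -0.15 ± 0.17 (SE). CYP2U1, a hydroxylase of long-chain fatty acids and the 1 member lower at an unadjusted p under 0.05, was at 0.588 and 0.775 CPM in 10 nM replicates 1 and 5 and at 1.96 to 4.41 CPM in the other 4, against 3.48 to 4.64 CPM in DMSO testes. Its log2 fold change was -0.81 ± 0.38 (SE; edgeR adjusted p = 0.146), and -0.23 ± 0.24 (SE) without the 5 libraries apart.

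In family 4, cyp4t8 had lowest, median and highest levels of 17.4, 23.8 and 40.2 CPM in 10 nM testes, against 19.4, 23.8 and 30.3 CPM in DMSO testes. For cyp4f3, whose human namesake inactivates leukotriene B4, levels were 6.79, 10.0 and 14.2 CPM in 10 nM testes, against 7.39, 9.59 and 11.5 CPM in DMSO testes. The groups overlapped, with 2 of the 10 nM libraries above and 2 below the DMSO range for cyp4t8, and 1 above and 1 below it for cyp4f3. The log2 fold changes were 0.10 ± 0.20 (SE) for cyp4t8 and 0.053 ± 0.19 (SE) for cyp4f3, and -0.29 and -0.28 without the 5 libraries apart. CYP4V2, a fatty acid hydroxylase whose loss causes a retinal dystrophy in humans, gave 0.70 ± 0.28 (SE; edgeR adjusted p = 0.0978) for ENSDARG00000062132 and 0.31 ± 0.47 (SE) for ENSDARG00000061585 at 10 nM.

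At 3 nM, 0 of 44 members passed against DMSO with edgeR, where 0.208% of all genes did. At an unadjusted p under 0.05 there were 10 members and 14.2% of all genes, and DESeq2 passed 1 member, cyp3a65, and 1.29% of all genes. Of these 10, 8 were higher and 2 lower, against 9.26% and 4.94% of all genes. The median log2 fold change was 0.34 over the members and 0.021 over all genes, with 29 of 44 members above 0 against 52.2% of all genes. Without the libraries apart the median of the members was 0.13 with 27 above 0, against a median of -0.0084 over all genes. In that fit 0 members passed (edgeR; 6 at an unadjusted p under 0.05), where 0.264% of all genes did and 11% were at an unadjusted p under 0.05. Both comparisons with DMSO share the same 6 control libraries. Between the doses, 0 of 44 members passed at 10 nM against 3 nM, where 0.129% of all genes did (edgeR; 5 members at an unadjusted p under 0.05, all higher, and 0 with DESeq2). At that unadjusted p 11.8% of all genes passed and 8.44% were higher, and 50.9% of all genes and 29 of 44 members had an estimate above 0. In 0 members did the libraries of 1 group lie wholly above or below those of the other. For all genes those shares were 1.02% above and 0.707% below at 3 nM against DMSO, and 0.54% above and 0.254% below at 10 nM against 3 nM. In a test of any difference among the 3 groups, 0 members passed, where 4.54% of all genes did (edgeR; 14 members and 26.1% of all genes at an unadjusted p under 0.05).

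**Figure D4:**
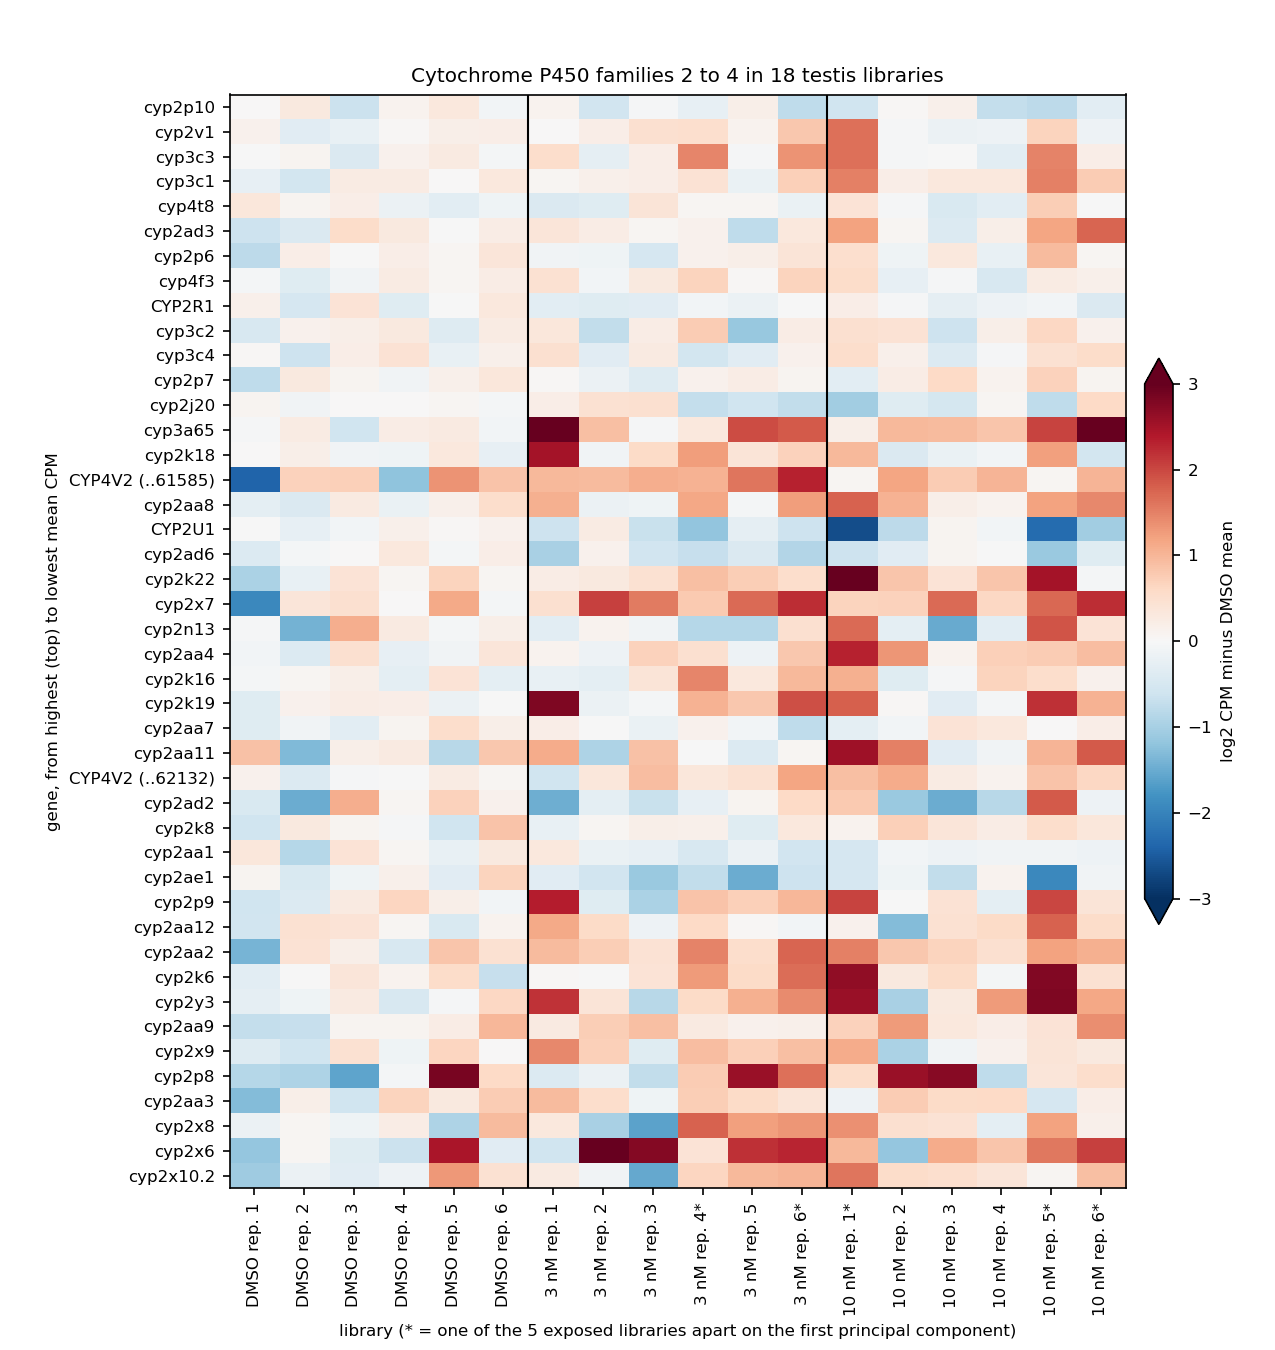
Log2 CPM (prior count 2) of each tested gene minus its DMSO mean (colour, limited to -3 and 3), with the 18 libraries by group on the x axis and the 44 genes by mean CPM on the y axis; stars mark the 5 libraries apart. The reddest cell of a gene lies in 10 nM replicate 5 for 9 genes, in 10 nM replicate 1 for 7 and in 3 nM replicate 1 for 6. Among all genes tested, these were the highest library for 10.7%, 13.1% and 1.72%.

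Many of the highest and lowest values fell in a few libraries. For 28 of 44 members (63.6%) the highest of all 18 libraries was one of the 5 apart, as it was for 50.4% of all genes tested. The highest library was 10 nM replicate 5 for 9 members (20.5%), against 10.7% of all genes. It was 10 nM replicate 1 for 7 members (15.9%), near the 13.1% of all genes. It was 3 nM replicate 1, which is not among the 5, for 6 members (13.6%), against 1.72% of all genes. At the other end, DMSO replicates 1 and 2 were the lowest library for 10 and 9 members (22.7% and 20.5%), against 13.1% and 5.08% of all genes.

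Markers of other tissues were high in some of the same libraries. CDH17, a cadherin counted here among the intestinal markers, stood at 106 CPM in 10 nM replicate 1, 122 CPM in 10 nM replicate 5 and 30.6 CPM in 3 nM replicate 1. In the other 15 libraries it was at 2.15 to 4.78 CPM. FABP2, the intestinal fatty acid binding protein, stood at 21.9 CPM in 3 nM replicate 1 and 12.5 CPM in 10 nM replicate 5. In the others it was at 0.91 CPM or less, so it was not high in 10 nM replicate 1. The 22 intestinal markers, none at 0 in all libraries, summed to 105 to 394 CPM in 10 nM testes and 91.5 to 287 CPM in 3 nM testes, against 87.8 to 127 CPM in DMSO testes. The sums of 334 CPM in 10 nM replicate 1 and 394 CPM in 10 nM replicate 5 include CDH17 at 106 and 122 CPM. Whether CDH17 stands for intestine or for another tissue in these libraries was not tested.

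The liver marker fabp10a was highest in 10 nM replicate 6 at 88.2 CPM, 3 nM replicate 6 at 86.2 CPM, 3 nM replicate 5 at 64.9 CPM and 10 nM replicate 5 at 62.3 CPM, against 1.05 to 18.3 CPM in DMSO testes. The 23 liver markers, of which cpn1 was at 0 throughout, summed to 96.7 to 853 CPM in 10 nM testes and 94.7 to 580 CPM in 3 nM testes, against 61.7 to 243 CPM in DMSO testes. Leukocyte markers, 29 identifiers, summed to 337 to 1734 CPM in 10 nM testes and 307 to 449 CPM in 3 nM testes, against 341 to 625 CPM in DMSO testes, with 1676 and 1734 CPM in 10 nM replicates 1 and 5. Kidney tubule markers, 13 identifiers, summed to 112 to 255 CPM in 10 nM testes and 94.5 to 167 CPM in 3 nM testes, against 106 to 150 CPM in DMSO testes. Their highest sum was in 10 nM replicate 1. Adipocyte markers, 10 identifiers, summed to 143 to 226 CPM in 10 nM testes and 81.9 to 138 CPM in 3 nM testes, against 197 to 405 CPM in DMSO testes, so that every 3 nM library was below every DMSO library. Of the cells of the testis itself, the 11 Leydig cell markers summed to 509 to 960 CPM in 10 nM testes and 338 to 805 CPM in 3 nM testes, against 618 to 1976 CPM in DMSO testes, with the highest sum in DMSO replicate 1. The 14 Sertoli cell markers summed to 2422 to 4597 CPM in 10 nM testes and 2652 to 3777 CPM in 3 nM testes, against 2257 to 3371 CPM in DMSO testes. Markers of endothelium, smooth muscle and connective tissue, 17 identifiers, summed to 536 to 1794 CPM in 10 nM testes, highest in replicate 6, and 390 to 682 CPM in 3 nM testes, against 573 to 1493 CPM in DMSO testes. Red blood cell markers, 7 identifiers, summed to 58.2 to 162 CPM in 10 nM testes and 49.2 to 80.9 CPM in 3 nM testes, against 52.2 to 148 CPM in DMSO testes. No marker of these last 5 lists was at 0 in all libraries. The part of these cells and tissues in the levels of the P450 genes was not tested.

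Many of the genes lie side by side. In NCBI RefSeq's zebrafish annotation of the assembly GRCz12tu, another build than the counts, 45 of the 49 symbols were found and 37 lay in 5 runs of neighbours with at most 5 other genes between members. The longest run held 11 genes, from cyp2n13 through the cyp2ad, cyp2v and cyp2p genes to cyp2j20. Its median log2 fold change was 0.26 at 10 nM against DMSO with 8 of 11 above 0, where 54.3% of all genes were. At 3 nM against DMSO its median was -0.050 with 4 of 11 above 0. Without the 5 libraries apart, only cyp2p7 and cyp2p8 of that run were above 0 at 10 nM. The run of 9 cyp2aa genes with cyp2ae1 had a median of 0.66 with 8 of 10 above 0 at 10 nM, and 0.34 with 7 of 10 at 3 nM. Without the 5 libraries apart, only cyp2aa1 and cyp2ae1 of it were below 0 at 10 nM. Medians were 0.65 for the 4 genes from cyp2x6 to cyp2x9, 0.40 for the 5 tested genes from cyp2k18 to cyp2k6 and 0.47 for the 4 cyp3c genes, all of which were above 0. The called gene cyp2k22 lay outside the cyp2k run.

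In 10 nM replicate 1, 5 of the 11 genes of the longest run were above their highest DMSO library, 4 were within the DMSO range and 2 were below it. Those above were cyp2v1 at 107 CPM, cyp2ad3 at 34.7 CPM, cyp2p6 at 18.3 CPM, cyp2n13 at 6.36 CPM and cyp2p9 at 3.15 CPM, against DMSO highest levels of 39.4, 22.2, 16.6, 4.14 and 1.17 CPM. Those below were cyp2j20 at 2.14 CPM and cyp2ad6 at 2.40 CPM, against DMSO lowest levels of 4.11 and 2.82 CPM, and cyp2p10 was within the range at 63.6 CPM, against a DMSO lowest of 62.0 CPM. These genes were named after their values were seen. Among all genes tested, 10 nM replicate 1, one of the 5 libraries apart, was the highest library for 13.1% and the lowest for 14%. The share of all genes outside their DMSO range in that library was not counted, so these counts cannot be read as a trait of the run. In that annotation cyp2v1 overlaps cyp2ad2, cyp2ad3 and cyp2p6, and cyp2p10 overlaps cyp2j20. Reads of 50 bases from overlapping genes or close paralogs may be shared out differently by another counting, so single values of these genes are uncertain.

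Around the P450 genes, a list of 22 electron partners and heme synthesis genes had 3 that rose and 0 that fell at 10 nM against DMSO, where 7.4% of all genes rose and 3.44% fell. Their median difference was -0.065 (log2). POR (ENSDARG00000059035), the reductase that supplies microsomal P450 enzymes, was at 57.6 to 119 CPM in 10 nM testes, against 34.2 to 59.4 CPM in DMSO testes. It rose by 0.90 ± 0.21 (log2, SE; edgeR adjusted p = 0.0153) and was at 0.49 ± 0.19 (SE; edgeR adjusted p = 0.179) without the 5 libraries apart. The other identifier named POR, ENSDARG00000055092, did not pass, and was at -0.0083 ± 0.13 (SE) without the 5 libraries apart. CYB5A, cytochrome b5, was at 348 to 921 CPM in 10 nM testes and 97.8 to 375 CPM in 3 nM testes. In DMSO testes it was at 23.9 to 44.8 CPM, below every exposed library, while the doses overlapped each other. Its log2 fold change was 4.32 ± 0.35 (SE; edgeR adjusted p = 1.39e-06) at 10 nM and 2.63 ± 0.33 (SE; edgeR adjusted p = 0.000451) at 3 nM, and 3.63 and 2.23 without the 5. CYB5R2, a cytochrome b5 reductase, rose by 1.21 ± 0.33 (SE; edgeR adjusted p = 0.0310) at 10 nM, a call lost without the 5, where the estimate was 0.64 ± 0.18 (SE; edgeR adjusted p = 0.0728). At 3 nM, 1 of the 22, CYB5A, rose and 0 fell.

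Of 33 tested transcription factors known to control genes of these families, 5 rose and 0 fell at 10 nM, where 7.4% of all genes rose and 3.44% fell, and their median log2 fold change was 0.42. At 3 nM 0 passed (edgeR; 6 at an unadjusted p under 0.05, as were 14.2% of all genes). The receptor gene ahr2 was at 65.2 to 157 CPM in 10 nM testes, against 21.7 to 35.4 CPM in DMSO testes, and rose by 1.80 ± 0.19 (log2, SE; edgeR adjusted p = 3.25e-05). Among the others, CEBPB rose by 2.63 ± 0.45 (SE) and HNF4G by 1.36 ± 0.30 (SE). Without the 5 libraries apart, ahr2, CEBPB and HNF4G passed, at 1.45, 0.98 and 0.99. NR1I2, which encodes PXR, was at 0.695 to 2.87 CPM in 10 nM testes and 0.274 to 2.15 CPM in 3 nM testes, against 1.13 to 2.62 CPM in DMSO testes, with a log2 fold change of -0.23 ± 0.42 (SE) at 10 nM.

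Among 29 other enzymes of fatty acid and eicosanoid oxidation, which share substrates with families 2 and 4, 5 rose and 1 fell at 10 nM, where 7.4% of all genes rose and 3.44% fell, and their median log2 fold change was 0.46. At 3 nM 0 passed (edgeR; 5 at an unadjusted p under 0.05, as were 14.2% of all genes). HPGD, which inactivates prostaglandins, was at 7.16 to 13.9 CPM in 10 nM testes, against 1.92 to 5.86 CPM in DMSO testes, and rose by 1.09 ± 0.25 (log2, SE; edgeR adjusted p = 0.0146). The gene faah, which degrades fatty acid amides, was at 4.0 to 9.86 CPM in 10 nM testes, against 8.88 to 18.6 CPM in DMSO testes, with -1.14 ± 0.24 (SE; edgeR adjusted p = 0.0109). ALOX5AP at 2.78, PTGS2 (ENSDARG00000010276) at 1.37, ptgdsb.2 at 1.22 and ptgs1 at 0.53 were the others that rose. The other identifier named PTGS2, ENSDARG00000004539, did not pass. Without the 5 libraries apart, 0 of the 29 passed at 10 nM, where 1.9% of all genes did. The estimates were then -0.85 ± 0.22 for faah, 1.14 ± 0.34 for ptgdsb.2 and 0.79 ± 0.26 for HPGD (SE). They were 0.64 ± 0.24 for PTGS2 (ENSDARG00000010276), 0.47 ± 0.29 for ALOX5AP and 0.38 ± 0.15 for ptgs1 (SE).

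For scale, 4 of the 5 family 1 genes rose at 10 nM and 3 at 3 nM against DMSO. Of all genes, 7.4% rose at 10 nM and 0.208% passed at 3 nM in either direction. Without the 5 libraries apart, CYP1A1, CYP1B1, cyp1c1 and cyp1c2 passed at 10 nM, and only CYP1A1 and CYP1B1 at 3 nM. In that fit cyp1c1 was at 2.58 ± 0.48 (SE; edgeR adjusted p = 0.0575) at 3 nM. CYP1A1 rose by 9.0 ± 0.42 (log2, SE; edgeR adjusted p = 3.28e-10) at 10 nM and by 7.59 ± 0.40 (SE; edgeR adjusted p = 2.51e-09) at 3 nM, and by 8.27 and 7.54 without the 5 libraries apart. The gene of families 2 to 4 with the largest estimate in the fit of all 18 libraries, cyp3a65 at 3 nM, was at 2.97 with an SE of 0.79. Without 3 nM replicate 1 that estimate was 1.22.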

How the data were processed

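A stranded total RNA kit and single 50-base reads were used, per the labels' protocols. The deposited files hold raw counts for each gene, which the authors made. Per the submitters' processing notes, the tools were HTSeq, STAR, FastQC and edgeR, and the build was GRCz10. Tool versions, the annotation release and the strand setting were not given in the sources used here. Symbols came from a name table covering 27000 of 35117 identifiers; some are human symbols in capitals. The members and all gene lists were chosen with earlier results of these data known.

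Counts were tested with edgeR 4.0.16 (R 4.3.3): filterByExpr, TMM scaling and 1 robust quasi-likelihood fit over the 18 libraries (15 residual degrees of freedom). A check on simulated data used the same spread in every group and no libraries apart, so it does not cover those features of the data. Adjusted p-values are Benjamini-Hochberg values over 24053 genes, called under 0.05; the SE is the size of the log2 fold change over the root of its F statistic. Alternatives were DESeq2 1.42.0, its size factors, no filter, a replicate block, 12-library fits, each library left out, and the 5 libraries apart left out. Named members were those called, the 10 with most CPM, and the 5 largest changes per dose among those averaging 1 CPM; list genes were up to 6 called per list, of which some are not reported here. Marker lists of 10 cell types or tissues were summed; the methylation tables were not used here.

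No pair of libraries in a group agreed within sampling noise (lowest chi-square per degree of freedom 17.9), so none was another read of the same library. This check cannot tell whether libraries share fish. Each was counted as 1 sample because the series describes them as biological replicates. No batch is named in the labels.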

Additional observations from a re-analysis of the deposited data

Results flagged for a closer look

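Among 57 sets of 6 libraries examined (19 named members in 3 groups), 2 held a library far from the other 5. The rule was Dixon's gap test on log levels, where chance alone gives about 1 in 20, or 2.85. A log scale shrinks the gap of a single high library, and 0 high libraries were flagged. The 34.0 CPM of cyp3a65 in 3 nM replicate 1 was thus not flagged, and a test on CPM itself could flag other libraries. The level of cyp2ad3, one of the fish relatives of CYP2J, was 8.85 CPM in 3 nM replicate 5, against 15.6 to 19.3 CPM in the other 3 nM libraries. The level of cyp2p6, from the same run of neighbours, was 7.41 CPM in DMSO replicate 1, against 12.7 to 16.6 CPM in the other DMSO libraries. Neither gene passed the test in any comparison.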

How the results depend on the processing

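Of 57 estimates (19 named members in 3 comparisons), 29 kept their direction and their side of the threshold under every alternative run, and 28 did not. At 10 nM against DMSO, 7 members passed with DESeq2, 1 in a fit of the 12 libraries compared and 0 without the 5 libraries apart; leaving out 1 library at a time gave 0 to 7, and for any difference among the groups 0 to 3. At 3 nM, DESeq2 passed 1. Pairing by replicate number was not evident. Same-numbered libraries deviated together with r over 0.1 in 1 of 6 pairs at 10 nM and 3 of 6 at 3 nM against DMSO. Between doses they did so in 2 of 6. That check cannot exclude pairing, since the libraries apart also deviate from their groups. With the numbers as a replicate block, 0 members passed at 10 nM, and the estimates of cyp2v1 and cyp3c3 at 10 nM against 3 nM turned to -0.029 and -0.035. Under that block 3 eicosanoid genes and 2 transcription factors passed at 10 nM against DMSO; without the 5 libraries apart 0 and 3 did, and 1 electron partner, of which DESeq2 passed 5. All genes passing at 10 nM against DMSO were 2609, and 4585 with DESeq2, 684 with the block, 1699 in the 12-library fit and 468 without the 5; leaving out 1 library gave 826 to 3855. At 3 nM they were 50, and 317 with DESeq2 and 26 with the block (25 to 55 leaving out 1). Between doses they were 31, and 733 with DESeq2 and 0 with the block, in the 12-library fit and without the 5 (0 to 355).

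Without the 5 libraries apart, estimates changed sign at 10 nM against DMSO to -0.10 (cyp2ad3), -0.27 (cyp2k18), -0.15 (cyp2k19), -0.051 (cyp2p6), -0.00084 (cyp2p9), -0.15 (cyp2v1), -0.14 (cyp3c3), -0.28 (cyp4f3) and -0.29 (cyp4t8). They did so at 3 nM against DMSO to -0.025 (cyp2ad3) and -0.23 (cyp3c2), and at 10 nM against 3 nM to -0.072 (cyp2ad3), -1.01 (cyp2p9), -0.33 (cyp2v1), -0.25 (cyp3c3) and -0.22 (cyp4t8), where the median became -0.0086. The cause was not tested.

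Leaving out 1 library turned the sign at 3 nM against DMSO for cyp2aa11 (-0.17 to 0.29), cyp2ad3 (-0.059 to 0.17), cyp2p6 (-0.15 to 0.056), cyp3c2 (-0.13 to 0.21) and cyp4t8 (-0.18 to 0.00074), and at 10 nM against DMSO for cyp4f3 (-0.077 to 0.13) and cyp4t8 (-0.078 to 0.18). Between doses it did so for cyp2k19 (-0.76 to 0.16), cyp2p9 (-0.28 to 0.64), cyp2v1 (-0.30 to 0.21), cyp3a65 (-1.84 to 0.47), cyp3c3 (-0.27 to 0.25) and cyp4t8 (-0.0013 to 0.28). Scaling with DESeq2's size factors and dropping the filter left 3 members passing; the 5 untested members and the many at about 1 CPM are limited by depth.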

Other observations

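Some members of low level, singled out after their values were seen, were split between libraries of the same group. The level of cyp2p8 was 2.92 CPM in DMSO replicate 5, 2.44 CPM in 3 nM replicate 5 and 2.43 and 2.68 CPM in 10 nM replicates 2 and 3, and 0.0592 to 1.24 CPM in the other 14 libraries. Each group thus held at least 1 of the 4 high libraries, and the log2 fold change at 10 nM against DMSO was 0.70 ± 0.86 (SE). For cyp2x6 the level was 1.57 and 1.11 CPM in 3 nM replicates 2 and 3 and 0.892 CPM in DMSO replicate 5, while 10 nM replicate 2 and DMSO replicate 1 had 0 counts. In 3 nM replicates 5 and 6 cyp2x6 was at 0.7265 and 0.7827 CPM, above every DMSO library but replicate 5. Its log2 fold change at 3 nM against DMSO was 1.91 with DESeq2 (adjusted p = 0.286). CYP4V2 (ENSDARG00000061585) was at 0.263 CPM in DMSO replicate 1 and 0.708 CPM in DMSO replicate 4, against 1.81 to 8.86 CPM in the other 16 libraries. All DMSO libraries but replicate 5, at 4.53 CPM, lay below every 3 nM library, at 3.44 to 8.86 CPM. Its log2 fold change at 3 nM against DMSO was 0.98 ± 0.47 (SE; edgeR adjusted p = 0.351).

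Other members stood out by direction or by library without passing the test. The estimate of cyp2ae1, at the end of the cyp2aa run, was -0.87 ± 0.32 (SE; edgeR adjusted p = 0.271) at 3 nM against DMSO, with 0.556 to 1.32 CPM in 3 nM testes against 1.22 to 2.77 CPM in DMSO testes. For cyp2ad6 it was -0.56 ± 0.23 (SE; edgeR adjusted p = 0.310), with 1.87 to 4.08 CPM in 3 nM testes against 2.82 to 4.67 CPM in DMSO testes. Levels of cyp2y3 were 2.94 and 3.42 CPM in 10 nM replicates 1 and 5 and 2.18 CPM in 3 nM replicate 1, and 0.177 to 1.28 CPM in the other 15 libraries.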
